A study of Mus musculus with 19 samples.

Results

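The genes described here are 31 genes of hepatic stellate cells, of portal fibroblasts and of the non-collagen extracellular matrix, among 35274 genes listed in the count tables. They were chosen by name as a gene module, and each name matched 1 Ensembl identifier. The module held 9 genes of quiescent stellate cells (Lrat, Reln, Ngfr, Hand2, Tcf21, Rgs5, Cygb, Ecm1 and Des) and 7 genes of myofibroblasts (Acta2, Tagln, Myh11, Postn, Lox, Loxl1 and Loxl2). It also held 9 genes of portal fibroblasts and elastic fibres (Thy1, Eln, Fbln1, Fbln2, Fbln5, Fbn1, Mfap4, Mfap5 and Mgp) and 6 genes shared by mesenchymal cells (Dcn, Lum, Bgn, Sparc, Vim and Sfrp1). All 31 passed the filter on low counts, after which 16387 genes were tested.

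RNA was sequenced from mouse liver cells that the labels call primary hepatocytes. GREEN samples came from livers with chronic injury and are labelled DR-derived hepatocytes, an abbreviation left unexplained. RED samples were native, tdTomato-labelled hepatocytes from livers with chronic injury. CTL samples were native hepatocytes from healthy livers. Every group, CTL included, carried OPN-CreERT2 and Rosa26R-mT/mG. The first is a tamoxifen-inducible Cre recombinase named for the osteopontin promoter, and the second is a reporter that Cre switches from red to green membrane fluorescence. The labels used here leave out the agent and length of the injury, the tamoxifen schedule and the age of the animals. Each group had 5 samples, which the series calls biological replicates. Nothing states that they came from separate animals, so p-values measure the spread between these samples.

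Hepatic stellate cells lie between the sinusoidal endothelium and the hepatocytes, where they store vitamin A as retinyl esters made by lecithin retinol acyltransferase. In injured liver they can become myofibroblasts, which are contractile, contain smooth muscle actin and secrete matrix. Portal fibroblasts surround the bile ducts and portal vessels, and they are known for making elastin and the microfibrils and fibulins on which elastic fibres are built. Small leucine-rich proteoglycans such as decorin, lumican and biglycan bind collagen fibrils and are made by both kinds of cell. Hepatocytes are not a usual source of most of these transcripts.

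Libraries of experiment 1 were made with a poly(A) kit and those of experiment 2 with a kit that depletes ribosomal RNA. Each group entered the tests with 2 libraries of experiment 1 and 3 of experiment 2. GREEN 4, GREEN 5, RED 1, RED 5, CTL 3 and CTL 4 were of experiment 1. Total estimated counts were 22442607 to 34216824 per library in experiment 1 and 38061859 to 44177627 in experiment 2. The 12 hepatocyte markers, albumin among them, summed to 35282 to 83682 CPM in GREEN, 87709 to 123724 CPM in RED and 118655 to 175262 CPM in CTL, so hepatocyte RNA was abundant in every sample. Every GREEN sum lay below every RED sum, and the tests of these markers are given below. CPM here are counts scaled to a common library size by TMM, a normalization that assumes most genes do not differ. GREEN 3 and GREEN 4 are titled as separate samples, but their library codes carry the same number, which RED 4 also carries. Across genes their profiles correlated at 0.86 after the offset between the kits was removed, against 0.818 to 0.939 for the 4 samples that had a library in each experiment (pairs that also set the offset) and 0.779 for GREEN 5 with GREEN 3. They were kept as separate samples, and results are also given without GREEN 4.

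Promoters are shown for 3 members around which the comparisons turned. Acta2 encodes the smooth muscle actin that marks activated stellate cells, Lrat encodes the enzyme that marks vitamin A storing stellate cells, and Fbln2 had the largest fold change of GREEN over RED. The windows are from RefSeq on GRCm38.p6 and run from 250 bases before to 50 bases after the annotated start, 5′ to 3′ on the gene's strand. Acta2 is at chr19:34255324-34255623 on the minus strand, Lrat at chr3:82903925-82904224 on the minus strand and Fbln2 at chr6:91212514-91212813 on the plus strand. Capitals mark matches on either strand to GGAATG, the MCAT element bound by TEAD factors, and to the E-box sequences CAGCTG and CAGATG, which can be bound by basic helix-loop-helix factors such as those encoded by Hand2 and Tcf21.
Acta2 promoter: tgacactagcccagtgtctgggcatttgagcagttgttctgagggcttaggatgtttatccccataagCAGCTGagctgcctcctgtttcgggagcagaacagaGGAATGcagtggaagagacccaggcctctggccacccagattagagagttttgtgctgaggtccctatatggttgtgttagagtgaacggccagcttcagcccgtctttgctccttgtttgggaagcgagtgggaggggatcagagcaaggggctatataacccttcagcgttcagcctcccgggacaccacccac
Lrat promoter: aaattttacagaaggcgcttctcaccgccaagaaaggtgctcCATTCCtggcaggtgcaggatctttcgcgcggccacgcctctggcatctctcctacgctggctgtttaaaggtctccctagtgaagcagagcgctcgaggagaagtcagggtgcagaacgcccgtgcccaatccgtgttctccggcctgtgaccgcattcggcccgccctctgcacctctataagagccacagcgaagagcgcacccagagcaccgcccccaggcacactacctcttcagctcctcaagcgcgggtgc
Fbln2 promoter: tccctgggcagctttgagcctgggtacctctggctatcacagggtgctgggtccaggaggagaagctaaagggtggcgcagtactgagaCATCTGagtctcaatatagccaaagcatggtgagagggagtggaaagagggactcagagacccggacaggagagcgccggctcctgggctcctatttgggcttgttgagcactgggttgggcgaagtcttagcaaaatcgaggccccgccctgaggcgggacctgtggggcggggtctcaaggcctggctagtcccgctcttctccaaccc
In the Acta2 window CAGCTG began 182 bases and GGAATG 146 bases before the start. The Lrat window held CATTCC, the reverse complement of GGAATG, 208 bases before the start. The Fbln2 window held CATCTG, the reverse complement of CAGATG, 161 bases before the start. Of 32851 promoters of this length, 14.7% held GGAATG, 16.3% held CAGCTG and 17.2% held CAGATG, each counted on both strands. The table held promoters of 17 members, among which GGAATG was found in 2, CAGCTG in 8 and CAGATG in 4. A strict CArG box, the site of serum response factor, was found in 1.63% of all promoters and in none of the 17. That search allowed no mismatch to CC, a run of only A or T, then GG. The Acta2 window holds ccctatatgg and ccttgtttgg, not marked in capitals, which differ from the pattern by a single base each. The result does not show that the Acta2 window lacks a serum response factor site. The motifs do not overlap each other in these windows, and a match is a description of letters, not a binding site.

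RED versus CTL set native hepatocytes from injured livers against those from healthy livers. Of the 31 genes, 27 rose in RED and none fell, where 14.2% of the 16387 genes tested rose and 1.99% fell. By edgeR's test none fell at an unadjusted p under 0.05 either, and by DESeq2 and limma-voom 0 fell. The median log2 fold change of the 31 was 3.68, beside 0.05 over all genes tested. All 9 quiescent stellate genes rose (median 3.29), as did all 7 myofibroblast genes (median 4.18), 6 of the 9 portal fibroblast and elastic fibre genes (median 3.53) and 5 of the 6 shared mesenchymal genes (median 4.00). In 25 of the 31 every RED sample lay above every CTL sample, as did 10.6% of all genes tested. These are bulk samples of cells labelled as hepatocytes, in which more cells of a type and more RNA per cell cannot be told apart.

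**Figure D1:**
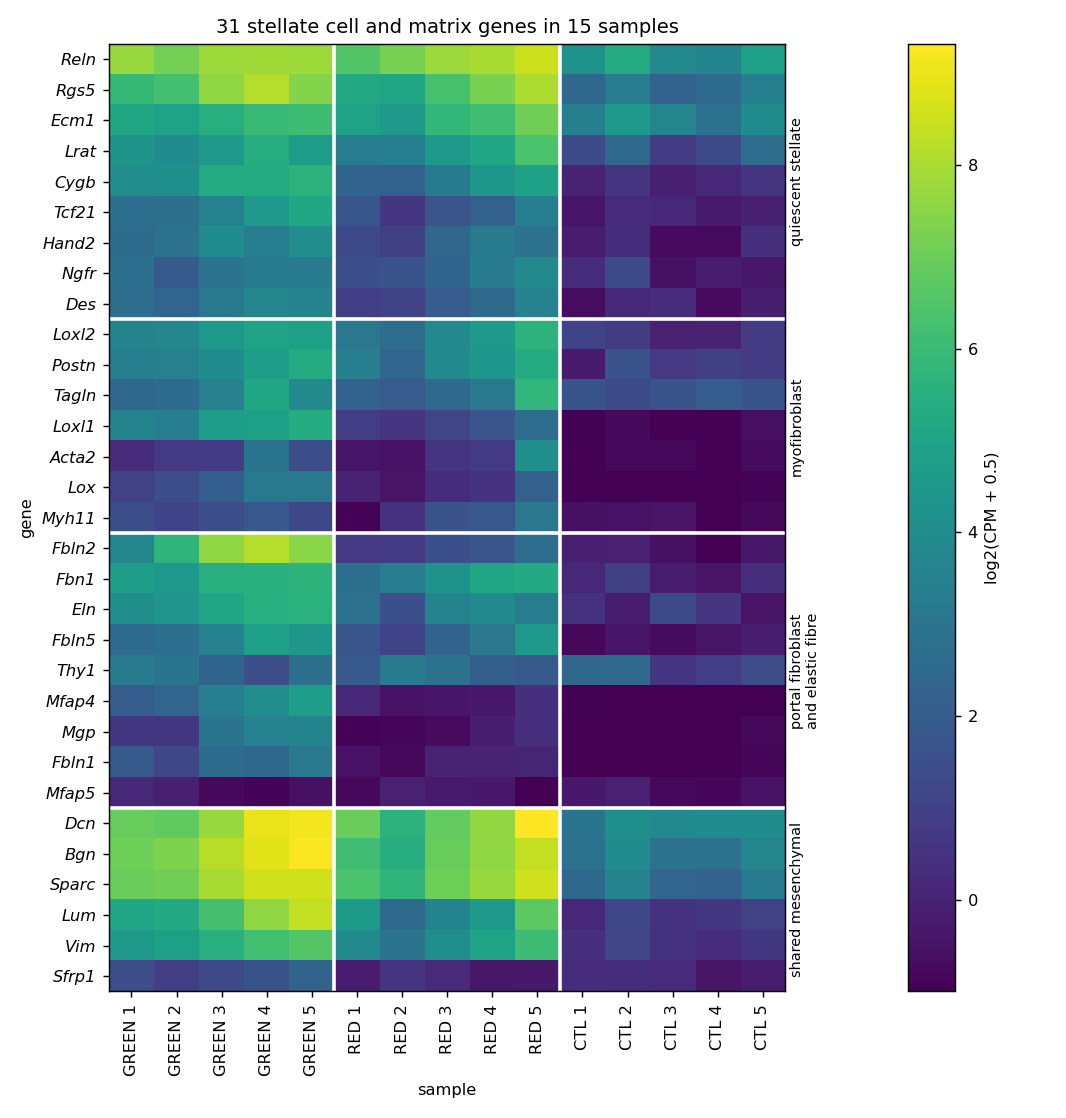
Levels of the 31 genes as log2(CPM + 0.5), by color, in each of 15 samples (columns, GREEN, RED and CTL from left to right) and by gene (rows, grouped by class, highest mean level first). The CTL columns are dark for most genes, the rows of Fbln2, Loxl1, Mfap4 and Mgp are brighter in GREEN than in RED, and RED 5 is the brightest RED column.

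The retinol enzyme gene Lrat (ENSMUSG00000028003.6, chromosome 3, 82892579 to 82903973) had 9.97, 10.5, 22.6, 32.8 and 83.6 CPM in RED 1 to RED 5, against 2.08, 5.28, 1.22, 2 and 5.99 CPM in CTL 1 to CTL 5. All 5 RED samples lay above all CTL samples, and RED 5 was the highest by a wide margin (log2 fold change 3.14, standard error 0.64, adjusted p = 0.0033). Reln (ENSMUSG00000042453.14, chromosome 5, 21884454 to 22344702), which encodes the secreted glycoprotein reelin and is a stellate cell gene in liver, had 90.5, 146, 218, 259 and 368 CPM in RED and 19.2, 40.6, 13.9, 12.1 and 28 CPM in CTL. The lowest RED sample was above the highest CTL sample (log2 fold change 3.29, standard error 0.40, adjusted p = 0.00036). Rgs5, a regulator of G protein signalling known from pericytes, had 37.4, 33.3, 80.2, 151 and 267 CPM in RED and 4.89, 9.9, 4.25, 5.64 and 10.6 CPM in CTL. RED 5 and RED 4 were again the highest, and the groups did not overlap (log2 fold change 3.90, standard error 0.64, adjusted p = 0.00082). Ecm1, an extracellular matrix protein gene, had 30.4, 23.3, 57.3, 69.9 and 133 CPM in RED and 10.4, 22.9, 12.4, 6.9 and 15.5 CPM in CTL. Its difference was the smallest of the class, and RED 2 lay just above CTL 2 (log2 fold change 2.13, standard error 0.45, adjusted p = 0.0043).

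The other 5 quiescent stellate genes rose as well. Cygb, which encodes the globin cytoglobin of stellate cells, averaged 13.9 ± 11.4 CPM in RED and 0.709 ± 0.260 CPM in CTL (SD, n = 5 each), with a log2 fold change of 4.20, the largest of the class. Hand2 and Tcf21, basic helix-loop-helix transcription factors of the stellate lineage, had log2 fold changes of 3.45 and 2.91. Des, which encodes the intermediate filament desmin, had 3.43, and Ngfr, which encodes the low-affinity nerve growth factor receptor, had 3.08. In all 5 the groups did not overlap.

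Among myofibroblast genes Acta2 (ENSMUSG00000035783.8, chromosome 19, 34241090 to 34255590) had 0.255, 0.208, 1.01, 1.19 and 17.3 CPM in RED and 0, 0.0784, 0.0787, 0 and 0.118 CPM in CTL. RED 5 stood far above the rest, and the other RED samples lay between 0.208 and 1.19 CPM, still above every CTL sample (log2 fold change 5.11, standard error 1.17, adjusted p = 0.007). The call was lost in experiment 1 alone and in experiment 2 alone. Tagln, which encodes the actin-binding protein transgelin of smooth muscle, had 4.29, 3.37, 5.46, 8.17 and 55.5 CPM in RED and 2.7, 2.01, 2.64, 3.53 and 2.74 CPM in CTL. RED 2 overlapped the CTL range, and RED 5 was again the highest (log2 fold change 1.97, standard error 0.60, adjusted p = 0.038). Without RED 5 its log2 fold change was 1.15 (adjusted p = 0.13). The call was also lost on leaving out any 1 of RED 3, RED 4, GREEN 3, GREEN 5 and the 5 CTL samples, with log2 fold changes of 1.64 to 2.10. Myh11, the smooth muscle myosin heavy chain gene, had a level of 0.0424 CPM in RED 1, inside the CTL range of 0 to 0.236 CPM, and 0.883 to 8.09 CPM in the other RED samples (log2 fold change 4.18, standard error 0.91, adjusted p = 0.005). Its call was lost by limma-voom, in experiment 1 alone and with the title number as a replicate block (adjusted p = 0.052).

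The other members of the class modify or belong to the matrix. Postn, which encodes the secreted matrix protein periostin, had 10.1, 4.62, 15, 21.2 and 40.4 CPM in RED and 0.338, 2.59, 1.14, 1.43 and 1.3 CPM in CTL. Loxl2 and Loxl1 encode lysyl oxidase-like enzymes, which cross-link collagen and elastin. Loxl2 had 8.06, 5.97, 14.7, 23.2 and 50.03 CPM in RED and 1.61, 1.25, 0.472, 0.513 and 1.3 CPM in CTL, and Loxl1 had 1.36, 0.961, 1.75, 2.79 and 5.95 CPM in RED and 0.0260, 0.105, 0, 0 and 0.177 CPM in CTL. In all 3 the groups did not overlap, and the log2 fold changes were 3.61, 4.14 and 4.96 (adjusted p of 0.00079, 0.00052 and 0.00052). Lox, the founding lysyl oxidase gene, was read once in all CTL libraries together and 197 times in RED. Its ratio of RED to CTL was 177, with a 95% counting interval of 31.3 to 7007 that covers counting error only.

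Elastic fibre genes rose in RED in 6 of 9 cases. Fbn1 (ENSMUSG00000027204.13, chromosome 2, 125300594 to 125507993), which encodes the microfibril protein fibrillin, had 6.53, 9.5, 18.6, 32.9 and 39.6 CPM in RED and 0.598, 1.44, 0.394, 0.228 and 0.856 CPM in CTL. Eln, which encodes elastin, had 7, 2.39, 12.1, 14.7 and 9.92 CPM in RED and 0.909, 0.392, 2.01, 1.03 and 0.236 CPM in CTL. Fbln5, whose product helps elastin assemble on microfibrils, had 2.84, 1.58, 4.31, 7.93 and 22.1 CPM in RED and 0.0780, 0.261, 0.118, 0.228 and 0.384 CPM in CTL. None of the 3 overlapped between the groups, and their log2 fold changes were 4.86, 3.53 and 4.87. Eln was the one of these in which RED 5 was not the highest RED sample.

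The remaining portal fibroblast and elastic fibre genes were low in CTL. Fbln2, a fibulin gene, had 1.15, 1.25, 2.37, 2.82 and 6.07 CPM in RED and 0.442, 0.470, 0.197, 0 and 0.295 CPM in CTL. The groups did not overlap (log2 fold change 2.99, standard error 0.80, adjusted p = 0.018), but the call was lost without RED 5 (adjusted p = 0.051) or without CTL 3 (adjusted p = 0.057). It was also lost by limma-voom, with the experiment 1 libraries, in experiment 2 alone and with the title number as a replicate block (adjusted p = 0.053). Fbln1 was read 64 times in RED and 2 times in CTL, and its RED to CTL ratio of 28.7 had an interval of 7.62 to 241.9. Mfap4, a microfibril-associated protein gene, was read 67 times in RED and once in CTL, and its ratio of 60.03 had an interval of 10.4 to 2406.

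The other 3 genes of the class did not pass in RED versus CTL. Thy1 (ENSMUSG00000032011.5, chromosome 9, 44043384 to 44048579), the surface glycoprotein gene commonly used to mark portal fibroblasts, had 3.22, 9.27, 6.95, 3.89 and 3.15 CPM in RED and 5.09, 5.33, 1.06, 1.37 and 2.18 CPM in CTL. The ranges overlapped, and in each group the libraries of experiment 1 held the lowest values (log2 fold change 0.91, standard error 0.38, adjusted p = 0.13). Mgp, whose product inhibits calcification of matrix, had 46 counts in RED and 3 in CTL (log2 fold change 3.49, standard error 1.21, adjusted p = 0.068). It passed without CTL 5, the one CTL library in which it was read (log2 fold change 6.52, adjusted p = 0.040), and without RED 1 (3.80, adjusted p = 0.034). Mfap5 was near its detection limit in every group, with 0 to 0.467 CPM in RED and 0.0570 to 0.470 CPM in CTL.

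The shared mesenchymal genes spanned high and low levels. Dcn (ENSMUSG00000019929.16, chromosome 10, 97479609 to 97518143), the decorin gene, had 126, 49, 115, 197 and 639 CPM in RED and 7.25, 17.3, 14.9, 15.5 and 15.9 CPM in CTL. RED 5 was the highest and RED 2 the lowest RED sample, and all RED samples were above all CTL samples (log2 fold change 3.68, standard error 0.54, adjusted p = 0.00052). Bgn, the biglycan gene, had 70.9, 43.1, 121, 193 and 332 CPM in RED and 6.68, 15.1, 6.85, 6.78 and 12.7 CPM in CTL. Sparc, which encodes osteonectin, a collagen-binding glycoprotein, had 83.1, 53.1, 133, 212 and 386 CPM in RED and 4.99, 11.8, 4.68, 4.28 and 8.88 CPM in CTL. Neither overlapped between groups, with log2 fold changes of 3.85 for Bgn and 4.52 for Sparc. Lum, the lumican gene, had 24.1, 5.5, 12.1, 22.8 and 106 CPM in RED and 0.650, 1.86, 0.945, 1.08 and 1.56 CPM in CTL (log2 fold change 4.15, standard error 0.67, adjusted p = 0.00077). Vim, the vimentin gene, had a log2 fold change of 4.47. Sfrp1, a secreted Wnt antagonist gene, did not pass and had 0.287 to 1.01 CPM in RED and 0.228 to 0.784 CPM in CTL (log2 fold change -0.08, standard error 0.46, adjusted p = 0.94).

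**Figure D2:**
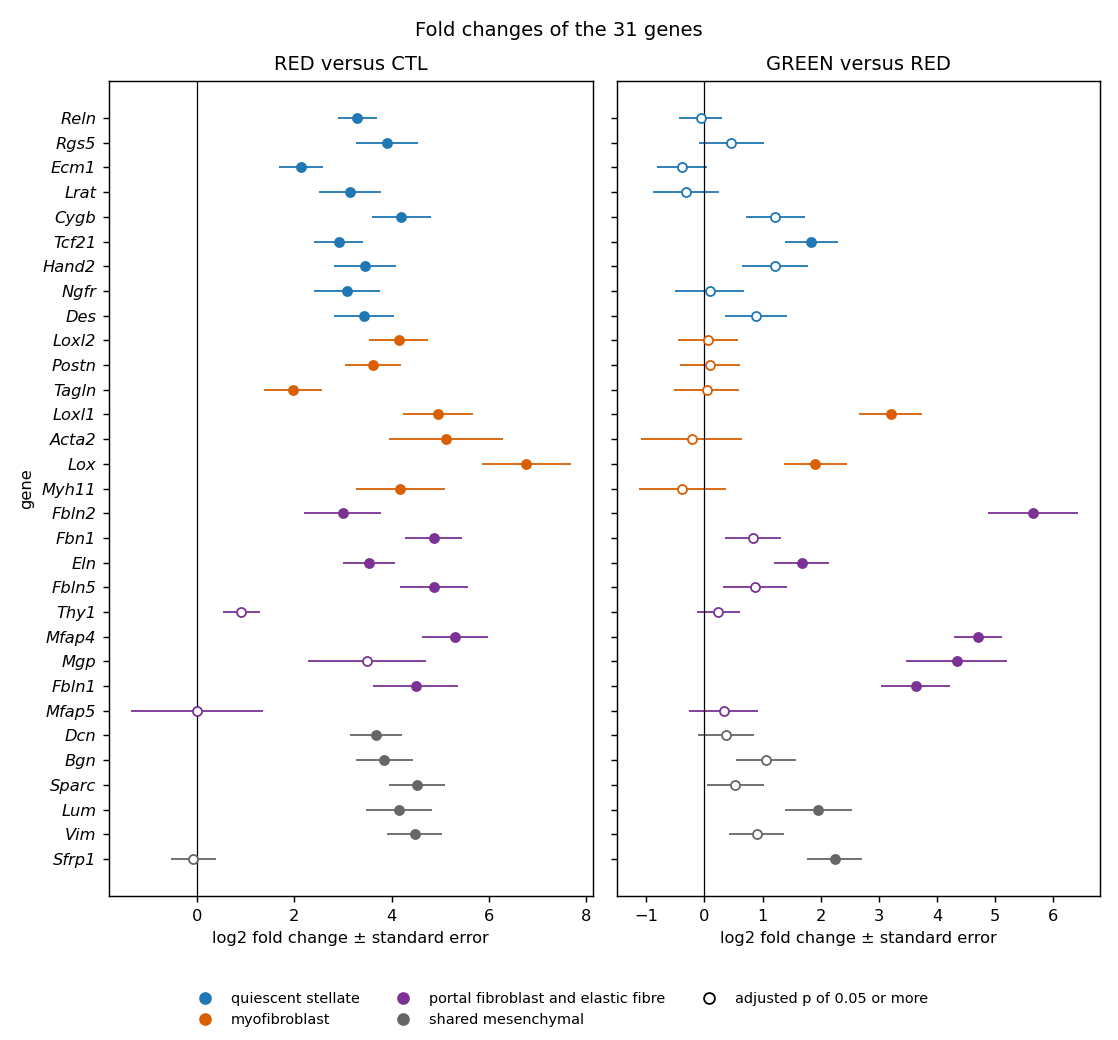
Fitted log2 fold changes with their standard errors for the 31 genes in RED versus CTL (left) and GREEN versus RED (right), colored by class, with open points where the adjusted p was 0.05 or more. On the left nearly all points lie well right of 0, while on the right the largest values belong to Fbln2, Mfap4, Mgp, Fbln1 and Loxl1. The error of Mfap5 in RED versus CTL is imprecise, since errors were taken from the fitted change and its F statistic and that change was 0.00.

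GREEN versus RED compared DR-derived with native hepatocytes of injured liver. It uses the same RED samples as the comparison above, so the fold changes of the 2 comparisons are not independent. Of the 31 genes, 10 rose in GREEN and none fell, where 9.68% of the genes tested rose and 3.22% fell. The number that fell was also 0 at an unadjusted p under 0.05 by edgeR, and by DESeq2 and limma-voom. The median log2 fold change was 0.87, beside -0.02 over all genes tested. By class, 5 of the 9 portal fibroblast and elastic fibre genes rose (median 1.67), 2 of the 7 myofibroblast genes (median 0.06), 2 of the 6 shared mesenchymal genes (median 0.98) and 1 of the 9 quiescent stellate genes (median 0.46). GREEN lay wholly above RED in 7 of the 31 genes, as it did in 6.66% of all genes tested. Without RED 1, GREEN 3, GREEN 4 or GREEN 5, left out 1 at a time, 6 genes passed each time, and the calls of Tcf21, Lox, Eln and Lum were the ones lost.

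Fbln2 (ENSMUSG00000064080.12, chromosome 6, 91212455 to 91272540), whose promoter is printed above, had 12.8, 52.4, 193, 288 and 179.9 CPM in GREEN and 1.15, 1.25, 2.37, 2.82 and 6.07 CPM in RED. GREEN 1 was far below the other GREEN samples and still above RED 5, the highest RED sample (log2 fold change 5.65, standard error 0.78, adjusted p = 0.00061). The call was lost in experiment 2 alone. Mfap4 (ENSMUSG00000042436.12, chromosome 11, 61485431 to 61488900) had 3.49, 4.63, 10.3, 16.2 and 26.6 CPM in GREEN and 0.594, 0.208, 0.263, 0.311 and 0.817 CPM in RED. Every GREEN sample was above every RED sample (log2 fold change 4.70, standard error 0.41, adjusted p = 7.2e-05), and the call held in all 28 alternatives tried.

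Fbln1 (ENSMUSG00000006369.14, chromosome 15, 85205949 to 85286535) had 3.27, 1.8, 5.72, 5.03 and 8.16 CPM in GREEN and 0.212, 0.0779, 0.479, 0.526 and 0.545 CPM in RED. GREEN 2 was the lowest GREEN sample and exceeded all RED samples (log2 fold change 3.63, standard error 0.60, adjusted p = 0.0018). The call was lost in experiment 2 alone and without GREEN 4 and GREEN 5. Mgp (ENSMUSG00000030218.2, chromosome 6, 136872435 to 136875823) had 1.1, 1.1, 7.4, 11.4 and 12 CPM in GREEN and 0.0424, 0.0519, 0.120, 0.406 and 0.817 CPM in RED. GREEN 1 and GREEN 2 were about level with each other and well below the other GREEN samples (log2 fold change 4.34, standard error 0.87, adjusted p = 0.0061). Eln (ENSMUSG00000029675.12, chromosome 5, 134702593 to 134747323) had 17.2, 20.1, 33.4, 43.3 and 47.5 CPM in GREEN against the RED values given above. The lowest GREEN sample, GREEN 1, was above RED 4, the highest RED sample (log2 fold change 1.67, standard error 0.47, adjusted p = 0.036). Besides the 4 omissions named above, its call was lost without RED 5, without CTL 1 and with the code number as a replicate block (adjusted p = 0.055).

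The other 4 genes of the class did not pass in GREEN versus RED. Thy1 had 8.91, 7.68, 4.52, 2.19 and 6.5 CPM in GREEN, a range that overlapped that of RED (log2 fold change 0.24, standard error 0.37, adjusted p = 0.7). Its log2 fold change was -0.16 without GREEN 5. Fbn1 had 26.9, 22.4, 45.6, 45.9 and 50.2 CPM in GREEN and Fbln5 had 5.6, 6.31, 11.5, 27.9 and 21.9 CPM in GREEN. Both ranges overlapped those of RED, in which RED 5 reached 39.6 CPM for Fbn1 and 22.1 CPM for Fbln5. Mfap5 remained near its detection limit, with 0.0394 to 0.600 CPM in GREEN.

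Among myofibroblast genes Loxl1 (ENSMUSG00000032334.10, chromosome 9, 58287738 to 58313186) had 11.6, 10.2, 27.2, 28.7 and 41.5 CPM in GREEN, all above the highest RED value of 5.95 CPM (log2 fold change 3.20, standard error 0.54, adjusted p = 0.002). Its call was lost in experiment 2 alone and without GREEN 4 and GREEN 5. Lox (ENSMUSG00000024529.13, chromosome 18, 52516067 to 52529867) had 1.55, 2.18, 3.69, 8.59 and 8.39 CPM in GREEN and 0.509, 0.234, 0.766, 0.932 and 4.08 CPM in RED. The groups overlapped, because RED 5 was above GREEN 1, GREEN 2 and GREEN 3 (log2 fold change 1.91, standard error 0.54, adjusted p = 0.035), and the call was also lost without RED 2, RED 3, RED 4, CTL 1 or CTL 5.

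The contractile genes did not pass. Acta2 had 0.744, 1.16, 1.29, 7.31 and 2.26 CPM in GREEN, with GREEN 4 the highest and all 5 below RED 5 (log2 fold change -0.22, standard error 0.87, adjusted p = 0.89). Without RED 5 its log2 fold change was 1.40, with an adjusted p of 0.30. Tagln had 5.11, 5.59, 10.6, 35.8 and 14.2 CPM in GREEN, again with GREEN 4 the highest, and Myh11 had 1.59 to 2.96 CPM in GREEN. Postn and Loxl2 overlapped almost wholly between the groups, with 10.1, 10.8, 15.6, 26.5 and 40.2 CPM and 12.2, 13.2, 22.1, 30.1 and 28.4 CPM in GREEN.

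Of the quiescent stellate genes 8 did not pass in GREEN versus RED. Tcf21 (ENSMUSG00000045680.8, chromosome 10, 22817281 to 22820174) was the one that rose, with 6.41, 6.51, 11, 23 and 34.8 CPM in GREEN and 2.89, 1.06, 2.78, 4.16 and 10.2 CPM in RED. RED 5 was above GREEN 1 and GREEN 2, so the groups overlapped (log2 fold change 1.84, standard error 0.46, adjusted p = 0.02). Lrat had 19.6, 15.7, 23.6, 42.2 and 25 CPM in GREEN, inside the RED range (log2 fold change -0.32, standard error 0.57, adjusted p = 0.74). The sign of that difference turned to 0.58 without RED 5. Reln had 214, 144, 221, 232 and 223 CPM in GREEN, also inside the RED range (log2 fold change -0.06, standard error 0.37, adjusted p = 0.93), and 0.41 without RED 5.

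Rgs5 had 60.2, 74.8, 195, 292 and 169 CPM and Ecm1 35.2, 31.4, 43.7, 63.3 and 67.9 CPM in GREEN. Both overlapped RED. Cygb averaged 32.7 ± 14.9 CPM in GREEN and 13.9 ± 11.4 CPM in RED (log2 fold change 1.22, standard error 0.51, adjusted p = 0.12), and Hand2 10.9 ± 4.84 CPM in GREEN and 4.87 ± 3.34 CPM in RED (log2 fold change 1.21, standard error 0.57, adjusted p = 0.16). Neither passed, nor did Ngfr, with 3.25 to 9.34 CPM in GREEN, or Des, with 4.65 to 12.6 CPM in GREEN.

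Among shared mesenchymal genes Lum (ENSMUSG00000036446.5, chromosome 10, 97565128 to 97572703) had 34.5, 38.8, 77.7, 197 and 329.9 CPM in GREEN against 5.5 to 106 CPM in RED. GREEN 4 and GREEN 5 were above RED 5, and GREEN 1 to GREEN 3 were below it (log2 fold change 1.96, standard error 0.58, adjusted p = 0.041). RED 5, GREEN 4 and GREEN 5 were of experiment 1, as was RED 1, at 24.1 CPM. GREEN 1 to GREEN 3 were of experiment 2, in which Lum read lower (median log2 difference -0.99 in samples with both kits). Whether the kits had a part in this overlap was not tested. The call was also lost without RED 2, RED 3, RED 4, CTL 1 or CTL 5. Sfrp1 (ENSMUSG00000031548.7, chromosome 8, 23411502 to 23449632) had 2.23, 1.39, 1.94, 2.7 and 4.36 CPM in GREEN and 0.382, 1.01, 0.671, 0.287 and 0.311 CPM in RED. It was low in all samples, and the groups did not overlap (log2 fold change 2.24, standard error 0.47, adjusted p = 0.0083). The call was lost with the code number as a replicate block (adjusted p = 0.08), on omitting both GREEN 4 and GREEN 5, and within experiment 2. Dcn had 119.9, 110.3, 212, 498 and 556 CPM in GREEN, all within the RED range (log2 fold change 0.37, standard error 0.48, adjusted p = 0.63). Bgn had 132, 162, 293, 459 and 612 CPM in GREEN (log2 fold change 1.06, standard error 0.52, adjusted p = 0.18) and Sparc 123, 137, 253, 380.4 and 381 CPM in GREEN. Vim averaged 53.1 ± 30.5 CPM in GREEN and 27.9 ± 24.7 CPM in RED (log2 fold change 0.90, standard error 0.47, adjusted p = 0.21). None of these 4 passed.

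Ratios of 2 genes within a sample do not depend on how libraries are scaled. The pairs given here were chosen after the values were seen, so they carry no test. The ratio of Loxl1 to Loxl2 CPM was 0.949, 0.770, 1.23, 0.953 and 1.46 in GREEN, 0.119 to 0.168 in RED and 0 to 0.136 in CTL. The 5 RED samples lay within a narrow band although their Loxl2 levels ran from 5.97 to 50.03 CPM, and every GREEN sample was above it. The ratio of Lum to Dcn was 0.288, 0.352, 0.366, 0.395 and 0.593 in GREEN, 0.105 to 0.192 in RED and 0.0633 to 0.107 in CTL. GREEN did not overlap RED in this ratio, although it did in the level of either gene.

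The ratio of Fbln2 to Fbln5 was 2.28, 8.31, 16.8, 10.3 and 8.23 in GREEN and 0.275 to 0.787 in RED. In CTL it was 0 to 5.67, on few reads. The ratio of Acta2 to Lrat was 0.0379 to 0.173 in GREEN, 0.0198 to 0.207 in RED and 0 to 0.0645 in CTL. Its highest values were 0.207 in RED 5 and 0.173 in GREEN 4, and the groups overlapped.

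**Figure D3:**
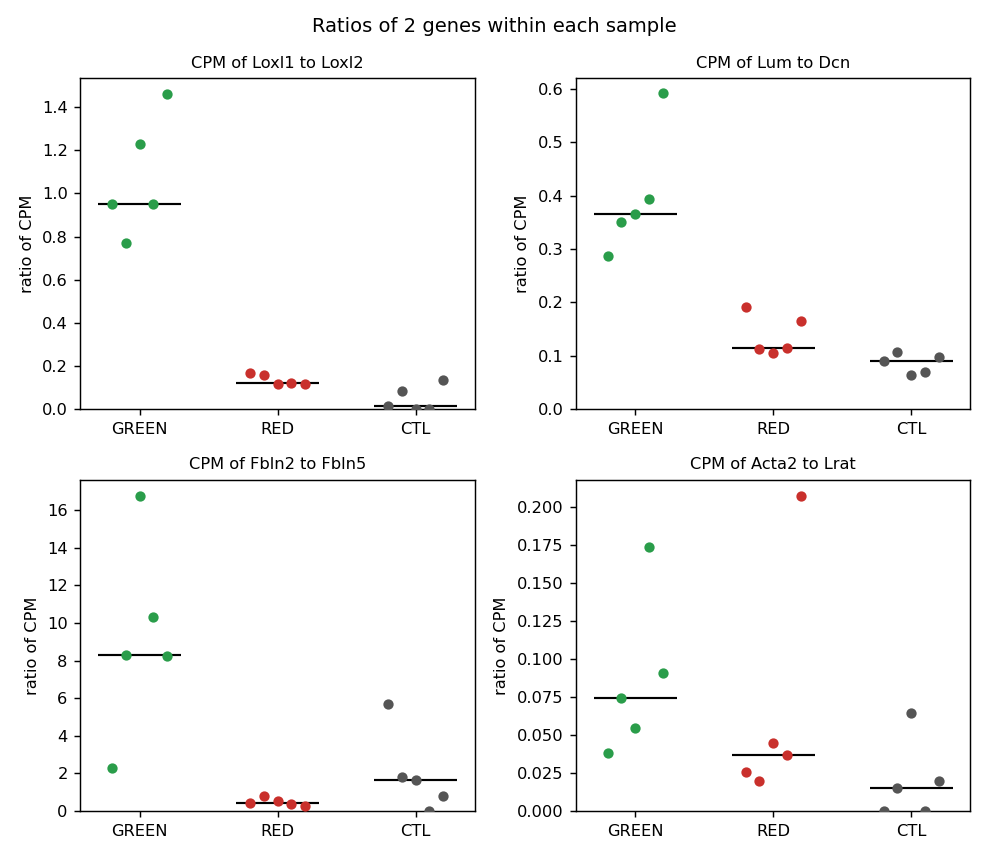
Ratios of CPM between 2 genes in each of 5 GREEN, 5 RED and 5 CTL samples (points), with the group median as a line. GREEN lies above RED in the ratios Loxl1 to Loxl2, Lum to Dcn and Fbln2 to Fbln5, and the groups overlap in Acta2 to Lrat, where RED 5 is at 0.207.

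Levels of different genes were compared per kilobase of exon length in the annotation. In GREEN the highest members per kilobase were Sparc (67.3 CPM per kb), Lum (55.3), Bgn (54.4) and Dcn (51.3), followed by Rgs5 (34.8) and Fbln2 (22.8). Lum had 107.5 CPM per kb in GREEN 4 and GREEN 5, the GREEN libraries of experiment 1, and 20.5 in GREEN 1 to GREEN 3, where Bgn had 32.1 and Dcn 25.3. In RED they were Sparc (45.8 CPM per kb) and Dcn (38.6), then Rgs5, Ecm1 and Bgn within 24.9 to 25, while Fbln2 had 0.429. Without RED 5 the RED values were 31.8 for Sparc and 20.9 for Dcn. In CTL Ecm1 was the highest at 5.4 CPM per kb, followed by Dcn at 2.43. Acta2 was low on this scale in every group, with 1.16 CPM per kb in GREEN, 1.82 in RED and 0.0251 in CTL. Without RED 5 the RED value of Acta2 was 0.303 CPM per kb, below that of GREEN, which still included GREEN 4 at 7.31 CPM. Over the libraries of experiment 2, which include neither RED 5 nor GREEN 4, Acta2 had 0.486 CPM per kb in GREEN and 0.366 in RED.

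GREEN versus CTL set DR-derived hepatocytes of injured liver against native hepatocytes of healthy liver, and it shares its samples with the comparisons above. Of the 31 genes, 30 rose in GREEN, where 29.5% of genes tested rose and 18.6% fell, and Mfap5 was the exception. The median log2 fold change was 4.75, beside 0.11 over all genes tested. In 29 genes GREEN lay wholly above CTL, as in 21.0% of all genes tested, the exceptions being Thy1 and Mfap5. Thy1 had a log2 fold change of 1.15 (adjusted p = 0.022), which did not pass without GREEN 5, CTL 3, CTL 4 or CTL 5 (0.82 to 1.04). It also did not pass by limma-voom, in experiment 2 alone, or without GREEN 4 and GREEN 5. The call of Tagln (2.01, adjusted p = 0.013) was lost without CTL 3, without GREEN 4 and GREEN 5, and without GREEN 3 and GREEN 4. Genes at 1 to 3 CTL counts had ratios of GREEN to CTL of 1831 for Mfap4 (interval 328 to 72362), 739 for Lox (132 to 29216), 364 for Fbln1 (100.6 to 3011) and 335 for Mgp (114.5 to 1628).

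The summed level of a class varied widely within groups. The 9 quiescent stellate genes summed to 369, 305, 567, 724 and 606 CPM in GREEN 1 to GREEN 5, 181, 224, 403, 562 and 924 CPM in RED 1 to RED 5 and 28.2 to 83.8 CPM in CTL. GREEN lay within the RED range, and both lay above CTL. The 9 portal fibroblast and elastic fibre genes summed to 79.9, 117, 312, 440.3 and 353 CPM in GREEN, 21.7, 24.8, 45.5, 63.8 and 83 CPM in RED and 2.91 to 8.36 CPM in CTL. GREEN 1 was just below RED 5 and the other GREEN samples were above all RED samples. Fbln2 alone made up 179.9 to 288 CPM of this sum in GREEN 3 to GREEN 5.

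Sums of markers of other cell types also varied between samples, and they followed the sums above only in part. The 12 endothelial markers summed to 395 to 906 CPM in GREEN, 471, 487, 940.4, 1666 and 2409 CPM in RED 1 to RED 5 and 57.5 to 168 CPM in CTL. In RED they stood in the same order of samples as the quiescent stellate genes. In GREEN they did not, and were lowest in GREEN 5, at 395 CPM, where the quiescent stellate genes summed to 606 CPM. All 12 rose in RED versus CTL (median log2 fold change 3.80), and in GREEN versus RED none passed (median -0.87) by edgeR, DESeq2 or limma-voom, with 1 lower at an unadjusted p under 0.05 by edgeR. The 12 Kupffer cell and macrophage markers summed to 142, 191, 387, 536 and 392 CPM in GREEN 1 to GREEN 5 and 37.6 to 103 CPM in CTL. Their order of samples in GREEN was that of the portal fibroblast and elastic fibre genes. In RED 1 to RED 5 they summed to 609, 118, 312, 845 and 1561 CPM. RED 1 thus lay above RED 2 and RED 3, unlike in the quiescent stellate sum. All 12 were higher in RED versus CTL and 4 were lower in GREEN versus RED. The 4 were Marco, Cd5l, Vsig4 and Timd4, named after their values were seen, and each of these calls was lost in 15 to 19 alternatives. These included scaling by library totals, each experiment alone, and leaving out any 1 of RED 1, RED 4, RED 5, GREEN 2, GREEN 3, GREEN 4 and GREEN 5. No marker of either list was at 0 counts in any group. Their part in the results of the stellate and matrix genes was not tested.

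The 10 biliary markers summed to 532, 749, 3037, 8296 and 4249 CPM in GREEN 1 to GREEN 5, 88.6 to 436 CPM in RED and 28.7 to 315 CPM in CTL. In GREEN they stood in the same order of samples as the portal fibroblast and elastic fibre genes, as did the Kupffer cell and macrophage markers. In GREEN versus RED 9 of the 10 rose (median 6.65), and in RED versus CTL 1 did, Krt19, with 0.297 to 0.895 CPM in RED and 0 to 0.0570 CPM in CTL. That call was lost by limma-voom and in experiment 2 alone, and in RED versus CTL 5 of the 10 rose by DESeq2 and 0 by limma-voom. Cftr had 0 counts in CTL. The 6 mesothelial markers summed to 12.4, 18.6, 40.00, 65.9 and 42.2 CPM in GREEN and 3.25 to 5.56 CPM in RED, again in that order in GREEN, against 0.676 to 2.99 CPM in CTL, where Upk3b and Upk1b had 0 counts. Of these 6, 4 rose in GREEN versus RED (median 2.19). They were Msln, Upk3b, Wt1 and Gpm6a, named here after their values were seen, with log2 fold changes of 2.84, 2.39, 2.00 and 4.33. Except for Wt1 these calls were lost in experiment 2 alone, and those of Upk3b and Gpm6a also without GREEN 4 and GREEN 5. In 5 tested genes of smooth muscle, 3 rose in RED versus CTL and none passed in GREEN versus RED by edgeR, adjusted or not, or by DESeq2, while 1 rose by limma-voom. The 3 were Lmod1, Synpo2 and Smtn, also named after their values were seen (7.43, 1.45 and 3.04). The call of Synpo2 was lost on leaving out any 1 of RED 3, RED 4, RED 5, CTL 1, CTL 3 and CTL 4, and in 5 other alternatives. Of the 12 hepatocyte markers, 10 fell in GREEN versus CTL (median -1.41), where 18.6% of all genes tested fell, and 1 in RED versus CTL (median -0.43). In GREEN versus RED their log2 fold changes were -1.16 to -0.74 (median -0.91). There 1 fell by edgeR, 9 by DESeq2 and 8 by limma-voom. Whether biliary, mesothelial, muscle or hepatocyte RNA had a part in the results was not tested.

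**Figure D4:**
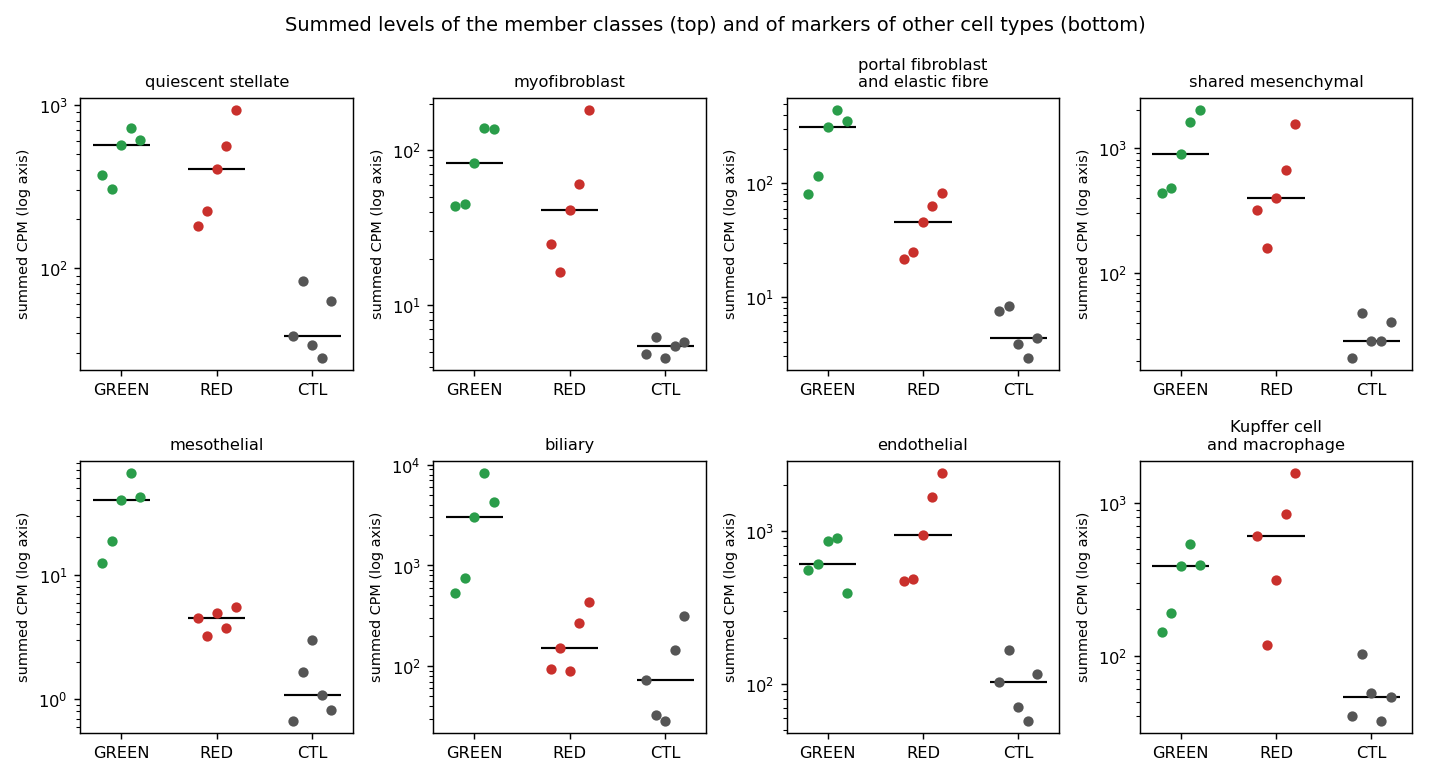
Summed CPM (log axes) of the 4 classes of the module (top row) and of marker lists of 4 other cell types (bottom row) in each GREEN, RED and CTL sample (points in the order of replicate number), with the group median as a line. The portal fibroblast and elastic fibre sum and the biliary sum are highest in GREEN 4, and the quiescent stellate and endothelial sums are highest in RED 5.

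Other genes of the same cells and pathways were taken from lists by name. Of 15 tested further stellate cell genes, 14 rose in RED versus CTL (median 3.25), while 2 rose and 1 fell in GREEN versus RED (median 0.04). In RED versus CTL the endothelin receptor gene Ednrb had a log2 fold change of 4.93, Nes, which encodes the intermediate filament nestin, 4.44, and the platelet-derived growth factor receptor genes Pdgfrb and Pdgfra 4.56 and 3.94. Pdgfrb averaged 74.8 ± 30.6 CPM in GREEN, 34.5 ± 24.1 CPM in RED and 1.38 ± 0.822 CPM in CTL. Adamtsl2 and Cspg4 were the 2 that rose in GREEN versus RED (2.71 and 1.95), and Angptl6 the 1 that fell (-0.99). These 3 are named after their values were seen, and all 3 calls were lost without RED 1, GREEN 3, GREEN 4 or GREEN 5.

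Of 6 tested further portal fibroblast genes, 2 rose in RED versus CTL (median 1.01) and 5 in GREEN versus RED (median 2.34). Dpt, which encodes the matrix protein dermatopontin, had 10.9 to 86.8 CPM in GREEN, 1.01 to 5.21 CPM in RED and 0 to 0.197 CPM in CTL. Its log2 fold changes were 5.04 in RED versus CTL and 3.62 in GREEN versus RED. Gas6, which encodes a ligand of TAM receptors, and Gli1, a Hedgehog pathway transcription factor gene of periductal mesenchyme, had 2.79 and 3.25 in GREEN versus RED, and Smoc2, named after its values were seen, had 1.89. The call of Smoc2 was lost without RED 1, GREEN 3, GREEN 4 or GREEN 5, and in 3 other alternatives. Those of Gas6 and Gli1 were lost in experiment 2 alone and without GREEN 4 and GREEN 5, and that of Gas6 also without GREEN 3 and GREEN 4. Pi16, a gene of adventitial fibroblasts, was the other one that rose in RED versus CTL (4.76). Entpd2, the ectonucleotidase gene that marks portal fibroblasts, also named after its values were seen, averaged 10.1 ± 4.45 CPM in GREEN, 5.17 ± 1.11 CPM in RED and 3.66 ± 0.392 CPM in CTL (log2 fold change 0.94, standard error 0.26, adjusted p = 0.035 in GREEN versus RED). That call was lost on leaving out any 1 of GREEN 3, GREEN 4, GREEN 5, RED 1, RED 3, RED 4, RED 5 and CTL 1.

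Of 29 tested further genes of matrix assembly, 26 rose in RED versus CTL (median 3.24) and 13 in GREEN versus RED (median 1.41). Ccn2, which encodes connective tissue growth factor, averaged 194 ± 138 CPM in GREEN, 8.13 ± 7.03 CPM in RED and 0.278 ± 0.234 CPM in CTL, with a log2 fold change of 4.55 in GREEN versus RED. Fmod, the fibromodulin gene, and Thbs1, the thrombospondin gene, had 4.04 and 3.08 there. The calls of Ccn2, Fmod and Thbs1 in GREEN versus RED were lost in experiment 2 alone and without GREEN 4 and GREEN 5. Dpt belongs to this list as well.

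Libraries of both kits could be compared in 4 samples. In these the median log2 difference of experiment 2 over experiment 1 lay within 1 of 0 for 30 of the 31 genes, beside 93.7% of all genes tested. Thy1 was the exception, at 1.30 (0.72 to 1.94 over the 4 samples). Lum had -0.99 and Dcn -0.93, so both read lower in experiment 2 by a similar amount. Eln had a median of 0.04 but -1.64 in CTL 5. Within experiments, 24 genes of the module rose in RED versus CTL in experiment 1 alone, beside 11.8% of all genes tested there, and 21 in experiment 2 alone, beside 6.73%. In GREEN versus RED 10 rose in experiment 1 alone, with 2 GREEN and 5 RED libraries, beside 19.4% of all genes tested there. In experiment 2 alone, with 3 of each, 1 rose, Mfap4, beside 0.452%. Over the 8 portal fibroblast and elastic fibre genes tested in both, all but Mfap5, the median log2 fold change was 3.26 in experiment 1 alone and 2.29 in experiment 2 alone. In a test of whether the group effect differed between the experiments, no gene of the module passed in any of the 3 comparisons by edgeR (lowest adjusted p = 0.32). At an unadjusted p under 0.05 there were 1 in GREEN versus RED, 4 in RED versus CTL and 6 in GREEN versus CTL, beside 8.67%, 4.06% and 12.9% of all genes tested. The fitted fold changes over CTL were smaller in experiment 2 for every member but Eln, Mfap5 and Sfrp1 in RED and Eln in GREEN. In those members the log2 differences were -0.65 to -5.97 in RED versus CTL and -0.47 to -6.08 in GREEN versus CTL. The largest were of Loxl1, which had 0 counts in CTL 3 and CTL 4. The cause was not tested.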

How the data were processed

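RNA of mouse liver cells labelled as hepatocytes was sequenced in 19 libraries of 15 samples, 5 per group. The authors deposited estimated counts per gene without normalization. These came from kallisto 0.43.1 with GRCm38, per the submitters' processing notes. Neither the annotation release nor how transcripts were summed is given in the sources used here. Per the labels' protocols, both experiments started from 150 ng of total RNA, with a TruSeq Stranded mRNA kit in experiment 1 and a KAPA HyperPrep RiboErase kit in experiment 2.

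Symbols and positions came from GENCODE M21 on GRCm38, in which 34845 of 35274 identifiers (98.8%) were found. Estimated counts were rounded. Each sample entered with 1 library, that of experiment 2 for the 4 samples with 2 (RED 2, RED 3, RED 4 and CTL 5). Genes were filtered with filterByExpr, libraries were scaled by TMM, and the 3 groups were fitted together with experiment as a term. Tests were edgeR's quasi-likelihood F tests (edgeR 4.0.16, R 4.3.3), with Benjamini-Hochberg adjustment over all 16387 genes tested and a threshold of 0.05. All adjusted p-values come from these tests, and a standard error belongs to the fitted log2 value. The procedure was tested on simulated data. CPM are counts scaled with the TMM factors, with the SD over 5 samples. Kallisto can divide reads among similar sequences, and antisense or overlapping genes were not separated further.

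The members and gene lists were chosen with earlier results of these data known. Values in every sample are given for the 4 members of highest mean CPM in each class, for Lrat, Acta2, Thy1 and Dcn, and for members that passed in GREEN versus RED. Others are given by range, mean or fold change. Genes that are not members come from lists of markers, up to 4 per list of mesenchymal genes by size of change, unless said to be named after their values were seen. Promoters had been planned for Acta2, Tagln and Myh11. Acta2 was in the RefSeq table, and Lrat and Fbln2 were added after their values were seen. The MCAT and E-box motifs were added after the strict CArG search, which allowed no mismatch, found no match.

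Ratios against groups with 1 to 3 counts carry an exact 95% interval for counts. Alternatives were scaling by median of ratios (RLE) or by library totals, DESeq2 1.42.0, limma-voom (limma 3.58.1), no filter, the experiment 1 libraries of the 4 samples, each experiment alone, replicate blocks, leaving out CTL, leaving out pairs of GREEN samples and leaving out each sample in turn.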

Additional observations from a re-analysis of the deposited data

Results flagged for a closer look

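In each group of 5 samples the highest and the lowest log2(CPM + 0.5) of each of the 31 genes were compared with the other samples by Dixon's ratio. Of 93 groups screened, 7 held a value that stood apart, where chance gives about 1 in 20. Whether any of them was technical was not tested.

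Acta2 in RED was highest in RED 5, at 17.3 CPM, with the next RED sample at 1.19 CPM. Reln in GREEN was lowest in GREEN 2, at 144.3 CPM, with the next GREEN sample at 213.9 CPM. Dcn in CTL was lowest in CTL 1, at 7.25 CPM, with the next CTL sample at 14.9 CPM.

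The other 4 values rest on single reads or a few of them in CTL. Fbln1 had 0.0590 CPM, Lox 0.0295 CPM and Mgp 0.0885 CPM in CTL 5, and Mfap4 had 0.0260 CPM in CTL 1, with 0 counts of that gene in each of the other CTL samples.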

How the results depend on the processing

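Every call of a member kept its direction in all alternatives run, and of the genes named with a fold change 5 values in RED versus CTL and 20 in GREEN versus RED changed sign, all of them of genes that did not pass. The 27 members higher in RED versus CTL were 21 to 28 over all alternatives and 25 to 28 on leaving out 1 sample. The 30 higher in GREEN versus CTL were 26 to 30. The 10 higher in GREEN versus RED were 1 in experiment 2 alone, 2 without GREEN 4 and GREEN 5, 5 without GREEN 3 and GREEN 4, and 6 to 10 on leaving out 1 sample. Scaling by library totals shifted the median over all genes to 0.33 in RED versus CTL, to 0.42 in GREEN versus RED and to 0.83 in GREEN versus CTL (log2).

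Over all genes, the 2652 called in RED versus CTL became 1207 in experiment 2 alone, and the 7890 of GREEN versus CTL became 3481 in experiment 2 alone and 4481 without GREEN 4 and GREEN 5. The 2114 of GREEN versus RED (1586 higher and 528 lower) became 4329 by library totals (4289 higher and 40 lower), 3822 by DESeq2 (2258 and 1564), 4141 with the experiment 1 libraries (2403 and 1738) and 5351 in experiment 1 alone (3062 and 2289). They became 77 in experiment 2 alone, 1283 without CTL (1189 higher and 94 lower), 268 without GREEN 4 and GREEN 5, 530 without GREEN 3 and GREEN 4, and 866 to 3515 on leaving out 1 sample. The causes were not tested.

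Sfrp1 in RED versus CTL had 0.18 by library totals, 0.05 in experiment 2 alone and -0.46 to 0.07 on leaving out 1 sample. In GREEN versus RED, Lrat had 0.12 by library totals, 0.03 by limma-voom and 0.10 in experiment 1 alone, Reln had 0.38, 0.08 and 0.32, and Acta2 had 0.19, 0.81 and 0.19, with 0.40 in experiment 2 alone. On leaving out 1 sample these ran from -0.64 to 0.58 for Lrat, -0.33 to 0.41 for Reln and -0.58 to 1.40 for Acta2. Without GREEN 4 and GREEN 5 Thy1 had -0.06 and Dcn -0.05, and Thy1 ran from -0.16 to 0.40 on leaving out 1 sample.

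The shared replicate numbers were not taken to pair samples. Deviations of same-numbered RED and CTL samples correlated at -0.11 to 0.42, and those of same-numbered GREEN and RED samples at 0.58, -0.1, -0.2, 0.44 and -0.22. Those of GREEN and RED samples with the same library code correlated at 0.58, 0.40, 0.78 and 0.44 for GREEN 1 to GREEN 4. For GREEN 5 the value was -0.22, so most pairs by code correlated but not all. GREEN 1 also correlated at 0.58 with RED 1, whose library code has another number. With the title number as a replicate block, 1799 genes passed in GREEN versus RED, and Lrat had 0.02, Reln 0.07 and Acta2 0.82. With the code number as a block, and without CTL, 914 genes passed, 910 of them higher, and the 10 members became 8, without Eln and Sfrp1.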
